A study of Mus musculus with 30 samples.

Results

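The genes described here carry out and control the handling of bile acids in the liver: Cyp7a1, Cyp8b1, Cyp27a1 and Cyp7b1 (synthesis), Slc27a5 and Baat (conjugation), Slc10a1 and Abcb11 (transport), and Nr1h4 and Nr0b2 (regulation). They were chosen by gene symbol, and all 10 were found among the 57180 genes of the count table. Expression was measured by RNA sequencing of poly(A)-selected RNA from mouse liver, in 30 libraries that form 6 groups of 5. In the prevention study, which lasted 10 weeks, NC mice ate a standard diet and were gavaged with water, MC mice ate a high-fat diet with water, and UB mice ate a high-fat diet and were gavaged daily with UB-NPs at 60 mg/kg/day. In the treatment study, NFD mice ate a standard diet with water for 18 weeks, while HFD and Uro mice were made obese by 10 weeks of high-fat feeding that continued for another 8 weeks, with daily gavage of water in the group named HFD and of UB-NPs at 60 mg/kg/day in Uro. The labels do not spell out the name UB-NPs and give no strain, sex or age. The labels do not say that a library is 1 mouse; this was assumed, so p-values measure the spread between these libraries. The labels describe 10 mice per group, of which the 5 libraries would be a subset.

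Bile acids are made from cholesterol in hepatocytes by a classic route, which Cyp7a1 opens, and an alternative route, which Cyp27a1 and Cyp7b1 serve; Cyp8b1 directs the product towards cholic acid. They are activated with coenzyme A, joined to taurine or glycine, pumped into bile and taken up again from portal blood. The bile acid receptor Nr1h4 (FXR) induces Nr0b2 (SHP), and in this loop high bile acid levels lower the transcription of Cyp7a1 and Cyp8b1.

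Promoter windows in the RefSeq table (build GRCm38.p6, 250 bases before to 50 after a gene's start) were matched by symbol for 6 of the 10 genes, with 7 windows in all; Cyp7a1, Cyp7b1, Baat and Slc27a5 had no entry. The windows of Cyp8b1 and Slc10a1 are shown because these genes rose in Uro livers, and that of Abcb11 because it did not pass the test there. Each is written 5′ to 3′ on the strand of its gene, all on the minus strand, with the letters found by the search below in capitals.
Cyp8b1, chr9:121916256-121916555: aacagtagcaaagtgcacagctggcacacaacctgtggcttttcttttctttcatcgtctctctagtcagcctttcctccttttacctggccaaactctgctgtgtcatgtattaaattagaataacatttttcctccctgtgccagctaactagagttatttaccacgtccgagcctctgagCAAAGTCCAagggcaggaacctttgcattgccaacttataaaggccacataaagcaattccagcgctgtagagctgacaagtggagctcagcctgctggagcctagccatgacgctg
Slc10a1, first window, chr12:80968656-80968955: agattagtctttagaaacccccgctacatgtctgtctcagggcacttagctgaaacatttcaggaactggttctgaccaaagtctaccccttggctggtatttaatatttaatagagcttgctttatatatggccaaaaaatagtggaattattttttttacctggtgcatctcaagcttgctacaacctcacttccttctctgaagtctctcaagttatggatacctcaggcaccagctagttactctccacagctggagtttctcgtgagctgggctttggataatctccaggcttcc
Slc10a1, second window, chr12:80968030-80968329: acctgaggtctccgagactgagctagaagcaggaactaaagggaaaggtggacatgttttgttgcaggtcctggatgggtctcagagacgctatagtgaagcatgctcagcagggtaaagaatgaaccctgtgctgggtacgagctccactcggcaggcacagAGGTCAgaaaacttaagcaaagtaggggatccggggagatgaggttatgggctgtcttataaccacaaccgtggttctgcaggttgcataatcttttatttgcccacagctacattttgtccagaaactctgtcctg
Abcb11, chr2:69342567-69342866: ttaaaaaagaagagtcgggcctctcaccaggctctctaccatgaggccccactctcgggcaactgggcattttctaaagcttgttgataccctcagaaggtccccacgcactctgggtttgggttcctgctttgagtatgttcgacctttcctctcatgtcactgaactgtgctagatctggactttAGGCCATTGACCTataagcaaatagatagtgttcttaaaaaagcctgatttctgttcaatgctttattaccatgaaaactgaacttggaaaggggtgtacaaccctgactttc

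The search covered both strands and was chosen with these sequences in view. The letters AGGTCA, the half-site of many nuclear receptors, occurred in 16.3% of all 32851 windows of the table, and among the 10 genes in a window of Slc10a1, Nr1h4 and Abcb11. The FXR inverted repeat, a half-site facing its mirror image across 1 base, occurred in 0.0365% of windows, and Abcb11 held it from base -63 relative to the start site; its AGGTCA match lies inside this repeat. The letters CAAAGTCCA, an element of the type bound by HNF4A, occurred in 0.475% of windows and in Cyp8b1 from base -67. The letters CAAGGCCA occurred in 2.40% of windows and in Nr0b2, and CAAGGTCA, which contains AGGTCA, in 1.56% and in none of the 7 windows. These are matches of letters, not measured sites.

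Total counts were 17.00 to 24.3 M (mega) per library. Mitochondrially encoded transcripts took 10.2 to 15.6% of the counts in Uro libraries, below every other library (25.7 to 58.5%), so group and this share cannot be told apart in comparisons with Uro. With 6 nuclear copies of mitochondrial sequence counted in, the share was 14.1 to 21.6% in Uro and 38.6 to 82.3% in the other libraries. The fit with mitochondrial genes removed kept these copies. Shares given below, and the covariate, leave these copies out. A fit with the share as a covariate called 0 of the 10 genes and 0 of 14163 genes in Uro minus HFD, with 2 of the 10 and 1544 of all genes at an unadjusted p under 0.05; the median standard error of a log2 fold change was 0.786 in that fit and 0.296 without the covariate. Hepatocyte markers (Alb, Apoa2, Ttr, Trf and Serpina1c) summed to 38980 to 54100 CPM in Uro and to 13550 to 28670 CPM in HFD libraries, and all 5 rose in Uro; CPM is the count scaled to a common library size by the TMM method. In bulk tissue, fewer cells of a type and less RNA per cell cannot be told apart. HFD replicate 2 had the highest CPM of its group for 9 of the 10 genes, and MC replicate 5, with a mitochondrial share of 47.4% against 25.7 to 38.6% in the other MC libraries, had the lowest for 5 of them. Calls that turn on either of these 2 libraries are given with and without it. HFD replicate 2 was picked by its high values of these genes. Leaving it out lowers the HFD mean and narrows its spread for most of them. Fits without it therefore favour larger differences from HFD and are not independent support. The same caution holds for MC replicate 5 and the genes it is lowest for.

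Expression levels of the 10 genes differed in rank between groups. Per kilobase of the gene length listed in the count table, Cyp7a1 had the lowest level of the 10 in 5 groups, between 1.14 ± 0.223% (MC) and 1.72 ± 0.706% (UB) of their summed counts per kilobase (SD, n = 5 each). In HFD the lowest was Cyp7b1, at 0.868 ± 0.399%. Slc27a5 ranked first in UB and Uro, with 20.5 ± 2.35% and 25.5 ± 1.35%, and Baat ranked first in NC with 20.3 ± 3.13%. Between-gene order depends on the length used: the authors' TPM values imply a median length of 1240 bases for Abcb11, where the count table lists 5025, and of 1250 for Cyp27a1, where it lists 1892. Within groups, Cyp7a1, Nr0b2, Cyp8b1 and Cyp7b1 varied most between libraries, with a median coefficient of variation over the 6 groups of 49.8%, 47.8%, 46.1% and 45.3%, and Nr1h4 and Cyp27a1 least, with 17.6% and 19.0%.

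**Figure D1:**
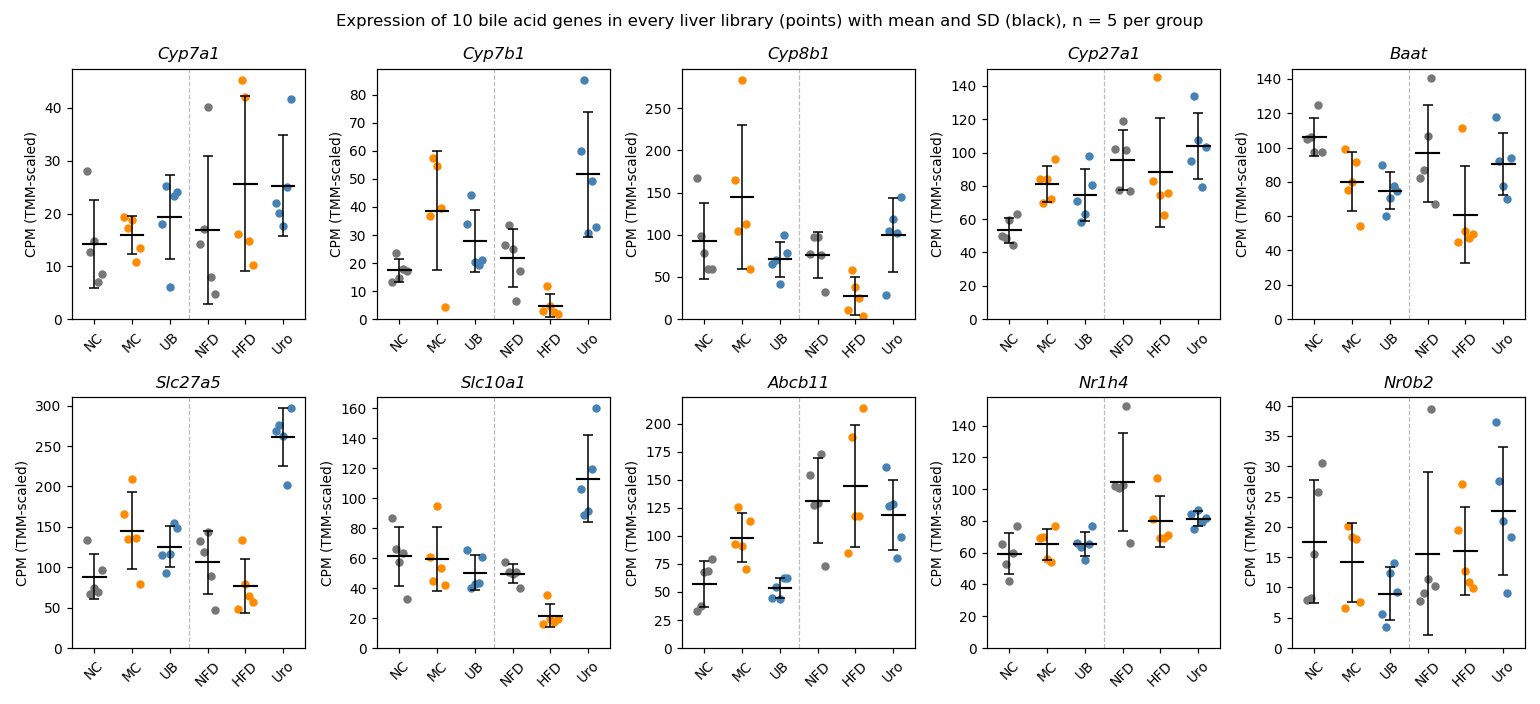
CPM (counts scaled to a common library size by TMM, linear axis from 0) of the 10 genes in each of the 30 libraries (points) by group, with the mean and SD in black (n = 5 per group); the dashed line separates the prevention study (left) from the treatment study (right). Cyp7b1 and Slc10a1 are lowest in HFD and highest in Uro, and Slc27a5 is highest in Uro at 201.9 to 297 CPM.

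The first question is how these genes responded to the high-fat diet over 10 weeks (MC against NC). In MC livers, 3 of the 10 were higher and 0 were lower. They were Cyp27a1, of the alternative synthesis route, the conjugation enzyme Slc27a5 and the bile salt export pump Abcb11, with fitted folds of 1.52, 1.64 and 1.72. Calls here and below mean an adjusted p under 0.05 (edgeR quasi-likelihood test, Benjamini-Hochberg adjustment over all genes tested, two-sided), and all 10 passed the filter on low counts in every fit. Among all 13486 genes tested, 12.2% were called and 6.65% were called higher. The median log2 fold change was 0.39 over the 10 genes and 0.03 over all genes, and 54.6% of the genes called were higher (96.6% of 2107 calls on the authors' TPM scale).

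Cyp27a1, the mitochondrial sterol hydroxylase that opens the alternative route (ENSMUSG00000026170, GRCm39 chromosome 1, 74752314 to 74777056, plus strand, protein coding), had 49.7, 48.9, 59.8, 44.8 and 62.9 CPM in the NC libraries and 83.96, 69.6, 84.1, 72.0 and 96.4 CPM in MC. Every MC library lay above every NC library, as was the case in this comparison, in either direction, for 8.22% of all genes tested. The means were 81.2 ± 10.8 and 53.2 ± 7.73 CPM (SD, n = 5 each), and the fitted difference on the log2 scale was 0.61 ± 0.17 (SE; edgeR adjusted p = 0.0205). The call was lost without NC replicate 2 or 4 (edgeR adjusted p = 0.058 and 0.0598) and without the library of highest mitochondrial share in each group (0.52, adjusted p = 0.0806).

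Abcb11, the pump that exports bile salts across the canalicular membrane (ENSMUSG00000027048, chromosome 2, 69068544 to 69173315, minus strand, 28 exons), had 32.6, 37.2, 67.99, 68.9 and 79.0 CPM in NC and 92.4, 126, 90.8, 70.1 and 114 CPM in MC. All but 1 of the MC libraries lay above the highest NC library. The log2 fold change was 0.78 ± 0.22 (SE; edgeR adjusted p = 0.0249). The call was lost without NC replicate 1 or 2 or MC replicate 2, with an adjusted p of at most 0.0776, and without the library of highest mitochondrial share in each group (0.59, adjusted p = 0.0983).

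Slc27a5, the ligase that activates bile acids with coenzyme A before conjugation (ENSMUSG00000030382, chromosome 7, 12722273 to 12732137, minus strand), had 134, 66.3, 74.7, 69.7 and 96.9 CPM in NC and 166, 136, 209.6, 137 and 79.7 CPM in MC. The groups overlapped through NC replicate 1 and MC replicate 5. The log2 fold change of 0.72 ± 0.23 (SE; edgeR adjusted p = 0.0424) lost its call without any 1 of 7 libraries, NC replicates 2, 3 and 4 and MC replicates 1, 2, 3 and 4 (adjusted p up to 0.14), and in 1 fit of all 30 libraries (adjusted p = 0.0782). Baat, which joins the activated bile acid to taurine or glycine (ENSMUSG00000039653, chromosome 4, 49489289 to 49506563, minus strand), averaged 106 ± 11.1 CPM in NC and 80.0 ± 17.3 CPM in MC (SD, n = 5 each). The difference of -0.41 ± 0.17 log2 units missed the threshold (edgeR adjusted p = 0.111).

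Cyp7b1, the oxysterol hydroxylase of the alternative route, which is known to be expressed more in male than in female mouse liver (ENSMUSG00000039519, chromosome 3, 18117411 to 18297740, minus strand), had 13.2, 23.7, 14.7, 18.0 and 17.3 CPM in NC and 36.9, 57.5, 54.8, 39.5 and 4.32 CPM in MC. In MC, 4 libraries lay above every NC library and replicate 5 below all of them. The fitted log2 difference of 1.15 ± 0.48 was not called (edgeR adjusted p = 0.141). Without MC replicate 5 it was 1.44 and called (adjusted p = 0.000705). Without that library Cyp27a1, Slc27a5 and Abcb11 had log2 fold changes of 0.54, 0.87 and 0.73 and were called as well (adjusted p = 0.0425, 0.00974 and 0.0485).

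A fit that included the mitochondrial share called 0 of the 10 genes in MC minus NC, with 3 at an unadjusted p under 0.05; the log2 fold changes were 0.67 for Cyp27a1, 0.84 for Abcb11 and 0.33 for Slc27a5. Without the library of highest mitochondrial share in each group, Cyp7b1 and Cyp8b1 were called at 1.36 and 1.17 (edgeR adjusted p = 0.0032 and 0.0428). Of 8 pericentral hepatocyte markers 5 rose in MC, and of 8 periportal markers 6 fell, with summed levels of 1845 to 2966 CPM in MC and 4509 to 5840 CPM in NC. Whether these shifts had a part in the results was not tested.

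The next question is whether UB-NPs given along with the high-fat diet altered the genes (UB against MC). In this comparison 0 of the 10 genes were called by edgeR, beside 0.608% of all genes (82 of 13486; 34.1% of them higher, and 96.6% of 87 on the TPM scale). At an unadjusted p under 0.05 there were 2 of the 10, Abcb11 and Cyp8b1, both lower in UB, beside 10.7% of all genes. The DESeq2 test and edgeR without the low-count filter each called 1 gene, Abcb11. The median log2 fold change of the 10 was -0.22 and that of all genes 0.00.

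Abcb11 had 44.4, 54.4, 43.6, 62.3 and 62.3 CPM in UB, and all of these lay below the 70.1 to 126 CPM of MC. Ranges without overlap were found for 2.72% of all genes. The log2 fold change was -0.89 ± 0.22 (SE; edgeR adjusted p = 0.0732), and -0.88 with DESeq2 (adjusted p = 0.0156). Cyp8b1 (ENSMUSG00000050445, chromosome 9, 121743422 to 121745371, minus strand, 1 exon) had 65.8, 69.7, 41.9, 99.4 and 78.8 CPM in UB and 165, 104, 283, 113 and 59.8 CPM in MC. The groups overlapped through MC replicate 5, and the log2 fold change of -1.03 ± 0.39 was not called (edgeR adjusted p = 0.323). In the same comparison 4 of 11 genes of the clock and its outputs rose and 2 of 7 male-biased liver genes fell; their part was not tested.

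Set against NC, UB had 0 of the 10 genes called by edgeR, beside 7.81% of all genes (57.3% of them higher, and 99.5% of 7639 on the TPM scale), and 3 at an unadjusted p under 0.05, beside 22.7% of all genes. The 3 were Baat, Cyp27a1 and Slc27a5. Baat had 60.3 to 89.97 CPM in UB, all below the 97.3 to 124.5 CPM of NC, a separation found for 7.48% of all genes. Its log2 fold change was -0.51 ± 0.17 (SE; edgeR adjusted p = 0.0624). DESeq2 called 2 genes, Baat lower and Cyp27a1 higher (adjusted p = 0.0232 and 0.0442).

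**Figure D2:**
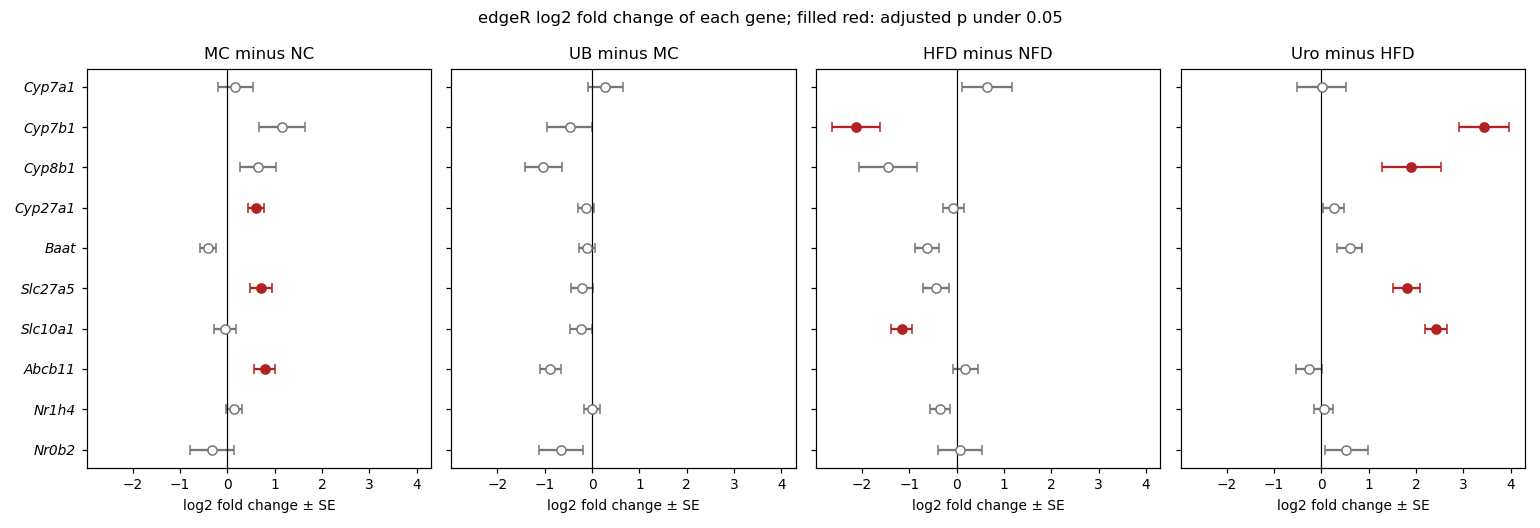
Log2 fold changes (edgeR, horizontal axis, with SE) of the 10 genes in the 4 main comparisons; filled red points passed an adjusted p under 0.05 and open grey points did not. Uro minus HFD holds the 4 points farthest to the right among those filled, from 1.80 (Slc27a5) to 3.44 (Cyp7b1).

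In the treatment study, HFD against NFD asked how the genes stood after 18 weeks of high-fat feeding. The uptake transporter Slc10a1 and the hydroxylase Cyp7b1 were lower in HFD livers, and 0 of the 10 genes were higher. Among all 14163 genes tested 13.2% were called and 5.97% were called lower, and 54.7% of the calls were higher (85.9% of 708 on the TPM scale). The median log2 fold change was -0.39 over the 10 genes and 0.03 over all genes. Both calls were also made without HFD replicate 2. The falls were larger there, which follows from leaving out the highest HFD library for both genes. On the TPM scale (limma) neither was called, with log2 fold changes of -0.76 for Slc10a1 and -1.24 for Cyp7b1 (adjusted p = 0.22 and 0.0749).

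Slc10a1, the sodium-dependent carrier (NTCP) that takes bile salts up from blood (ENSMUSG00000021135, chromosome 12, 80996372 to 81015479, minus strand), had 57.4, 50.4, 49.5, 50.7 and 40.1 CPM in NFD and 16.0, 35.3, 19.3, 17.6 and 19.5 CPM in HFD. Every HFD library lay below every NFD library, as for 8.00% of all genes. The fitted level was 2.24-fold lower, a log2 fold change of -1.16 ± 0.22 (SE; edgeR adjusted p = 0.00166). Without HFD replicate 2, the highest of its group, it was -1.41 (adjusted p = 0.000117).

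Cyp7b1 had 26.3, 33.7, 25.0, 6.61 and 17.1 CPM in NFD and 2.94, 11.98, 4.72, 2.58 and 1.86 CPM in HFD. The groups overlapped through NFD replicate 4 and HFD replicate 2, and the other HFD libraries lay below all of NFD. The counts behind the HFD values were 30 to 238 per library. The fitted level was 4.38-fold lower, a log2 fold change of -2.13 ± 0.51 (SE; edgeR adjusted p = 0.0132), and -2.80 without HFD replicate 2 (adjusted p = 0.000386).

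Cyp8b1, the hydroxylase needed for cholic acid, had 77.7, 97.6, 96.9, 76.3 and 31.8 CPM in NFD and 10.98, 58.8, 38.3, 24.9 and 3.31 CPM in HFD. All but 1 of the NFD libraries lay above all of HFD. The fitted log2 difference of -1.45 ± 0.61 was not called (edgeR adjusted p = 0.134; -1.93 and 0.0511 without HFD replicate 2). Baat had 66.9 to 141 CPM in NFD and, replicate 2 apart, 45.1 to 51.5 CPM in HFD, with 111 CPM in replicate 2. Its log2 fold change of -0.63 ± 0.26 was not called (edgeR adjusted p = 0.107) and was -0.95 and called without that library (adjusted p = 0.00631). In HFD, 5 of 7 male-biased liver genes and 7 of 8 periportal markers fell, and 4 of 11 clock genes rose and 1 fell. The summed level of the male-biased list was not lower, at 2212 to 3412 CPM in HFD and 1356 to 2888 CPM in NFD. The part of these lists was not tested.

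The last main question is whether UB-NPs given to obese mice altered the genes (Uro against HFD). Slc10a1, Slc27a5, Cyp7b1 and Cyp8b1 were higher in Uro livers, by 5.33, 3.48, 10.9 and 3.74-fold, and 0 of the 10 genes were lower. Expression changed widely between these groups: 27.1% of all 14163 genes were called and 15.3% were called higher, and 56.7% of the calls were higher (98.1% of 8000 on the TPM scale). The median log2 fold change was 0.56 over the 10 genes and -0.08 over all genes. The HFD libraries serve both this comparison and HFD minus NFD, so a low value in them raises Uro minus HFD and lowers HFD minus NFD.

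Slc10a1 had 106, 88.6, 91.6, 119 and 159.8 CPM in Uro against 16.0 to 35.3 CPM in HFD. Every Uro library lay above the highest HFD and the highest NFD library, and ranges without overlap were found for 24.3% of all genes. The log2 fold change was 2.42 ± 0.23 (SE; edgeR adjusted p = 1.02e-06). Slc27a5 had 268, 277, 262, 202 and 297 CPM in Uro and 48.3, 133, 78.8, 64.6 and 57.1 CPM in HFD. These groups did not overlap either, and the log2 fold change was 1.80 ± 0.29 (SE; edgeR adjusted p = 8.59e-05).

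Cyp7b1 had 60.1, 85.2, 30.6, 49.3 and 33.0 CPM in Uro, all above the 1.86 to 11.98 CPM of HFD. The fitted log2 difference was 3.44 ± 0.53 (SE; edgeR adjusted p = 0.000198) and 4.12 without HFD replicate 2 (adjusted p = 6.99e-06). Cyp8b1 had 28.3, 105, 119, 102 and 145 CPM in Uro and 10.98, 58.8, 38.3, 24.9 and 3.31 CPM in HFD. All but Uro replicate 1 lay above HFD. The log2 fold change was 1.90 ± 0.62 (SE; edgeR adjusted p = 0.0343), and the call was lost without HFD replicate 1 or 4 or Uro replicate 2, 3, 4 or 5 (adjusted p of 0.0557 to 0.0743), without the low-count filter (adjusted p = 0.0721) and without the library of highest mitochondrial share in each group (1.74, adjusted p = 0.0924).

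Once the mitochondrial share entered the fit, the log2 fold changes were 1.82 for Slc10a1, 0.22 for Slc27a5, 2.04 for Cyp7b1 and -0.45 for Cyp8b1, and none of the 4 was called (edgeR adjusted p = 0.295, 0.929, 0.586 and 0.942). On the TPM scale the median of all genes was 0.55, and relative to it the log2 fold changes were 2.81, 2.35, 3.22 and 2.52. In Uro, 5 of 5 hepatocyte markers, 6 of 8 pericentral markers and 4 of 7 male-biased genes rose, with no fall in these lists. Of 8 periportal markers 2 rose and 1 fell, and of 11 genes of the clock and its outputs 1 rose and 2 fell. The part of these shifts in the results was not tested.

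The other 6 genes did not pass the test in Uro minus HFD. Cyp7a1, the rate-limiting enzyme of the classic route (ENSMUSG00000028240, chromosome 4, 6265612 to 6275633, minus strand), had 22.0, 20.1, 17.6, 25.1 and 41.8 CPM in Uro and 16.1, 45.3, 42.0, 14.7 and 10.3 CPM in HFD. The ranges overlapped throughout, and the log2 fold change was 0.01 ± 0.52 (edgeR adjusted p = 0.994). Nr1h4, the nuclear bile acid receptor (ENSMUSG00000047638, chromosome 10, 89289742 to 89369497, minus strand), had 81.4 ± 4.67 CPM in Uro and 79.7 ± 16.1 CPM in HFD (SD, n = 5 each; edgeR adjusted p = 0.871). Nr0b2, the corepressor it induces (ENSMUSG00000037583, chromosome 4, 133280678 to 133283847, plus strand), had 22.7 ± 10.5 and 16.0 ± 7.24 CPM (edgeR adjusted p = 0.434). Abcb11 and Cyp27a1 had log2 fold changes of -0.26 ± 0.27 and 0.26 ± 0.22, and Baat of 0.59 ± 0.26, or 0.93 and called without HFD replicate 2 (edgeR adjusted p = 0.0891 and 0.0039).

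Set against the standard diet, Uro was higher for 2 of the 10 genes, Slc10a1 and Slc27a5, and lower for 0. In this comparison 28.4% of all genes were called, 16.1% were called higher, and 19.9% had ranges without overlap, as these 2 genes did; 56.6% of the calls were higher (97.97% of 10661 on the TPM scale). Slc10a1 had a log2 fold change of 1.25 ± 0.22 and Slc27a5 of 1.37 ± 0.28 (SE; edgeR adjusted p = 0.000236 and 0.001), and neither was called with the mitochondrial share as a covariate (adjusted p = 0.797 and 0.915). Cyp7b1 had 51.6 ± 22.3 CPM in Uro and 21.7 ± 10.3 CPM in NFD, a log2 fold change of 1.31 ± 0.48 that missed the threshold (edgeR adjusted p = 0.054).

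Of the 10 genes, 4 were called in none of the 6 comparisons: Cyp7a1, Nr1h4, Nr0b2 and Baat. Baat means ran from 60.9 ± 28.2 CPM in HFD to 106 ± 11.1 in NC (SD, n = 5 each), and the ranges of neighbours in that order overlapped. Cyp7a1 means ran from 14.2 ± 8.31 CPM in NC to 25.7 ± 16.6 in HFD, in the rising order NC, MC, NFD, UB, Uro and HFD, and the ranges of neighbours in this order overlapped. Nr1h4 means ran from 59.4 ± 13.0 CPM in NC to 105 ± 30.8 in NFD, and Nr0b2 means from 8.94 ± 4.39 CPM in UB to 22.7 ± 10.5 in Uro (SD, n = 5 each), with overlap of all neighbours in each order. Neighbours in the order of means lay apart only for Slc10a1, whose Uro libraries stood above NC and whose HFD libraries stood below NFD, and for Cyp7b1, whose HFD libraries stood below NC. Between HFD and NFD, 8.00% of all genes had ranges without overlap. The pairs of Uro with NC and of HFD with NC cross the studies, and the share of all genes was not computed for them.

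Whether the effects differed between the studies was tested with interaction terms in 1 fit of all 30 libraries. The effect of the high-fat diet was lower in the treatment study for Cyp7b1 and Slc10a1, by -3.32 ± 0.75 and -1.16 ± 0.34 log2 units (SE; edgeR adjusted p = 0.0113 and 0.0361). Of all 14785 genes, 5.41% were called and 3.42% were called lower. Neither call held once the fit included the mitochondrial share (edgeR adjusted p = 0.0687 for Cyp7b1 and 0.147 for Slc10a1) and on the TPM scale (limma adjusted p = 0.0948 and 0.244). That of Slc10a1 also ended with the replicate block (adjusted p = 0.0529) and without any 1 of NC replicates 3, 4 and 5, MC replicates 1 and 3, NFD replicates 1, 2 and 3 and HFD replicates 1, 3, 4 and 5 (adjusted p up to 0.106). Slc27a5 was just outside the threshold at -1.19 (adjusted p = 0.0546) and was called in 7 of 28 alternatives, among them without HFD replicate 2 (adjusted p = 0.00818) and without MC replicate 5 (adjusted p = 0.0194). Without HFD replicate 2, Cyp27a1 and Cyp8b1 were called too, at -0.98 and -2.62 (edgeR adjusted p = 0.0131 and 0.0324, against 0.119 and 0.101 with it). The effect of UB-NPs was higher in the treatment study for Slc10a1 by 2.62 ± 0.34, for Cyp7b1 by 3.89 ± 0.75, for Slc27a5 by 1.99 ± 0.38 and for Cyp8b1 by 2.90 ± 0.77 (SE; edgeR adjusted p = 8.63e-06, 0.00105, 0.000492 and 0.0127). Here 12.3% of all genes were called and 8.54% were called higher. With the mitochondrial share as a covariate none of these 4 was called (edgeR adjusted p = 0.215, 0.55, 0.675 and 0.803). Baat was not called, at 0.67, but was at 1.00 without HFD replicate 2 (edgeR adjusted p = 0.162 and 0.00999). The studies differ in length, in when UB-NPs began and in whether the mice were already obese, and these cannot be told apart.

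The balance between synthesis enzymes was compared within libraries, where a common scaling of the library cancels, as ratios of counts per kilobase. The ratio of Cyp8b1 to Cyp7a1 was 11.7, 12.2, 5.15, 20.4 and 14.2 in NFD, 1.46, 2.77, 1.95, 3.63 and 0.687 in HFD, and 2.75, 11.2, 14.4, 8.72 and 7.44 in Uro. All HFD ratios lay below all NFD ratios, and all but 1 of the Uro ratios lay above all HFD ratios. The log2 ratio differed by -2.68 in HFD minus NFD and by 2.10 in Uro minus HFD (exact two-sided permutation tests, p = 0.007937, the smallest that 5 against 5 allow, and p = 0.02381; adjusted over 8 ratio tests 0.0212 and 0.0476). Without 1 library, the second lost its call in 9 of 10 runs, and its adjusted p ran from 0.0318 to 0.0762.

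The ratio of Cyp7b1 to Cyp7a1 was 1.20 to 6.89 in NFD, 0.216 to 0.509 in HFD and 1.52 to 8.18 in Uro. HFD lay apart from both. The log2 differences were -3.05 for HFD minus NFD and 3.50 for Uro minus HFD (exact two-sided permutation p = 0.007937 for each, adjusted p = 0.0212). In the prevention study neither ratio passed; that of Cyp8b1 to Cyp7a1 was 9.44 to 32.4 in MC and 5.93 to 14.9 in UB, a log2 difference of -1.03 (exact permutation p = 0.03175, adjusted p = 0.0508).

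Further ratios were chosen after their values were seen and are given without a test. The ratio of the uptake carrier Slc10a1 to the export pump Abcb11 was 0.843 to 1.58 in NFD, 0.262 to 0.542 in HFD and 1.88 to 4.64 in Uro. These 3 groups did not overlap. In the prevention study this ratio was 1.179 to 7.619 in NC, 1.025 to 2.999 in MC and 1.996 to 4.222 in UB. These ranges overlapped each other and that of Uro. The ratio of Slc27a5 to Baat, the consecutive conjugation enzymes, was 1.94 to 2.86 in Uro, 0.909 to 1.30 in HFD and 0.534 to 1.36 in NFD, where HFD and NFD overlapped, and 0.475 to 1.08 in NC, 1.25 to 2.23 in MC and 1.09 to 1.68 in UB, where MC and UB overlapped.

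**Figure D3:**
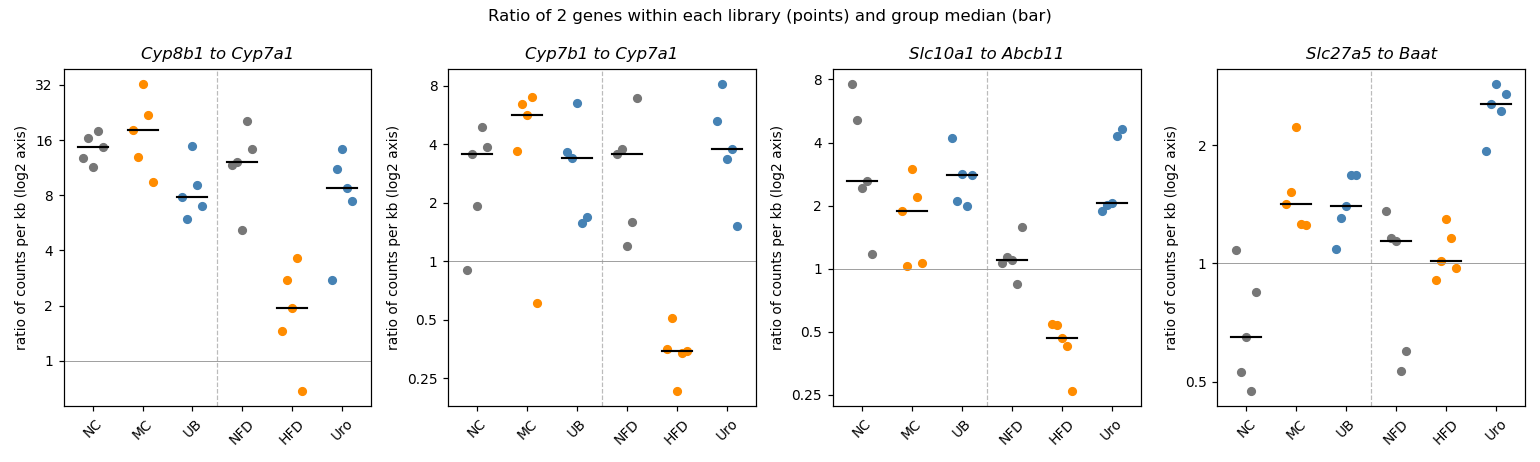
Ratios of counts per kilobase of gene pairs within each library (points; log2 vertical axis) with the group median as a bar, for 6 groups of 5 libraries. In HFD the ratios were low for Cyp8b1 to Cyp7a1 (0.687 to 3.63), Cyp7b1 to Cyp7a1 (0.216 to 0.509) and Slc10a1 to Abcb11 (0.262 to 0.542).

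Other genes of the pathway were counted from lists of synthesis and conjugation (15 genes), transport (14) and regulation (17). In Uro minus HFD, 7 of 14 tested synthesis and conjugation genes rose and 0 fell, where 15.3% of all genes were called higher and 27.1% were called in either direction. Akr1c6, an aldo-keto reductase, went from 84.1 ± 19.4 to 274 ± 53.8 CPM, Hsd17b4, of peroxisomal side-chain shortening, from 121 ± 26.4 to 278 ± 14.9 CPM, and Acot8, a peroxisomal thioesterase, from 4.92 ± 1.43 to 12.9 ± 2.79 CPM (SD, n = 5 each; edgeR adjusted p = 1.13e-05, 8.22e-05 and 7.28e-05). In HFD minus NFD 1 of these 14 rose and 4 fell, beside 13.2% of all genes called. Akr1c6 had a log2 fold change of -0.83 ± 0.22, Amacr, a racemase of side-chain shortening, of -0.73 ± 0.19, and Cyp2a12, which hydroxylates bile acids in mice, of 0.87 ± 0.26 (SE; edgeR adjusted p = 0.0169, 0.0138 and 0.0287).

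Among 14 tested transporters, 3 rose and 1 fell in Uro minus HFD, and 4 rose and 1 fell in HFD minus NFD. Of all genes 27.1% and 13.2% were called in these comparisons, so the transporters called in Uro minus HFD were near the share of all genes. Slco1a1, an organic anion uptake carrier that is also on the male-biased list, averaged 55.0 ± 15.5 CPM across NFD livers, 5.64 ± 3.50 CPM across HFD livers and 23.0 ± 10.4 CPM across Uro livers (SD, n = 5 each); it fell by 3.23 log2 units in HFD and rose by 2.04 in Uro (edgeR adjusted p = 9.38e-05 and 0.000839). Slc51a, a subunit of the basolateral exporter OST, rose by 1.13 ± 0.31 in Uro, and Atp8b1, a canalicular lipid flippase, fell by 0.99 (edgeR adjusted p = 0.00986 and 0.00154). In HFD, Slc10a2, the apical sodium-dependent bile acid carrier, and Abcg8, of the sterol exporter, rose by 2.22 ± 0.41 and 1.24 ± 0.27 (edgeR adjusted p = 0.00136 and 0.00427). Slc10a2 is also 1 of 5 ileum markers (Fabp6, Slc10a2, Fgf15, Vil1 and Fabp2). Of these, Fgf15 was at 0 in all 30 libraries and Fabp6 at 0 in all groups but HFD. The 5 summed to 14.1 to 28.4 CPM in NFD, 23.1 to 38.7 CPM in HFD and 55.4 to 111.6 CPM in Uro libraries. Of the 3 that were tested in this study, 1 rose and 0 fell in HFD minus NFD, and the 1 was Slc10a2 itself. In Uro minus HFD 1 rose, which was not Slc10a2, and 0 fell. The 5 cholangiocyte markers (Krt7, Krt19, Epcam, Sox9 and Spp1) summed to 17.6 to 71.7 CPM in NFD, 45.1 to 439 CPM in HFD and 37.2 to 219 CPM in Uro. Of these 5, 1 rose and 0 fell in HFD minus NFD, and 0 rose and 1 fell in Uro minus HFD. The part of either cell type was not tested.

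Of 14 tested regulators 0 rose and 2 fell in Uro minus HFD, and 0 rose and 2 fell in HFD minus NFD, beside 27.1% and 13.2% of all genes called. Fgfr4, the receptor for the gut hormone FGF15, and Ppargc1a, a coactivator, fell by 0.73 and 1.15 in Uro (edgeR adjusted p = 0.0088 and 0.0152). In HFD, Ppara, a fatty acid receptor, fell by 1.09, and Klb, the coreceptor of Fgfr4, by 1.10 (edgeR adjusted p = 0.00287 and 0.043). The median log2 fold change in Uro minus HFD was 0.45, 0.32 and 0.21 for the lists of synthesis, transport and regulation.

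In MC minus NC the lists gave 3 of 14 synthesis genes higher and 2 lower, 6 of 13 transporters higher and 1 lower, and 0 of 14 regulators higher and 1 lower, where 12.2% of all genes were called and 6.65% were called higher. Abcc3, a basolateral exporter, Abcg8 and Tmem30a, a flippase subunit, rose by 1.21 ± 0.18, 1.33 ± 0.27 and 0.79 ± 0.19 (SE; edgeR adjusted p = 0.000284, 0.00344 and 0.0101). Hsd3b7, of the sterol ring steps, and Cyp2a12 rose by 1.17 ± 0.19 and 1.06 ± 0.25, while Akr1d1, the reductase of the ring, fell by 1.33 (edgeR adjusted p = 0.000434, 0.00887 and 0.00181). Prox1, a corepressor of Cyp7a1, fell by 0.83 (edgeR adjusted p = 0.00471). In UB minus MC, edgeR called 0 genes in each of the 3 lists, beside 0.608% of all genes.

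**Figure D4:**
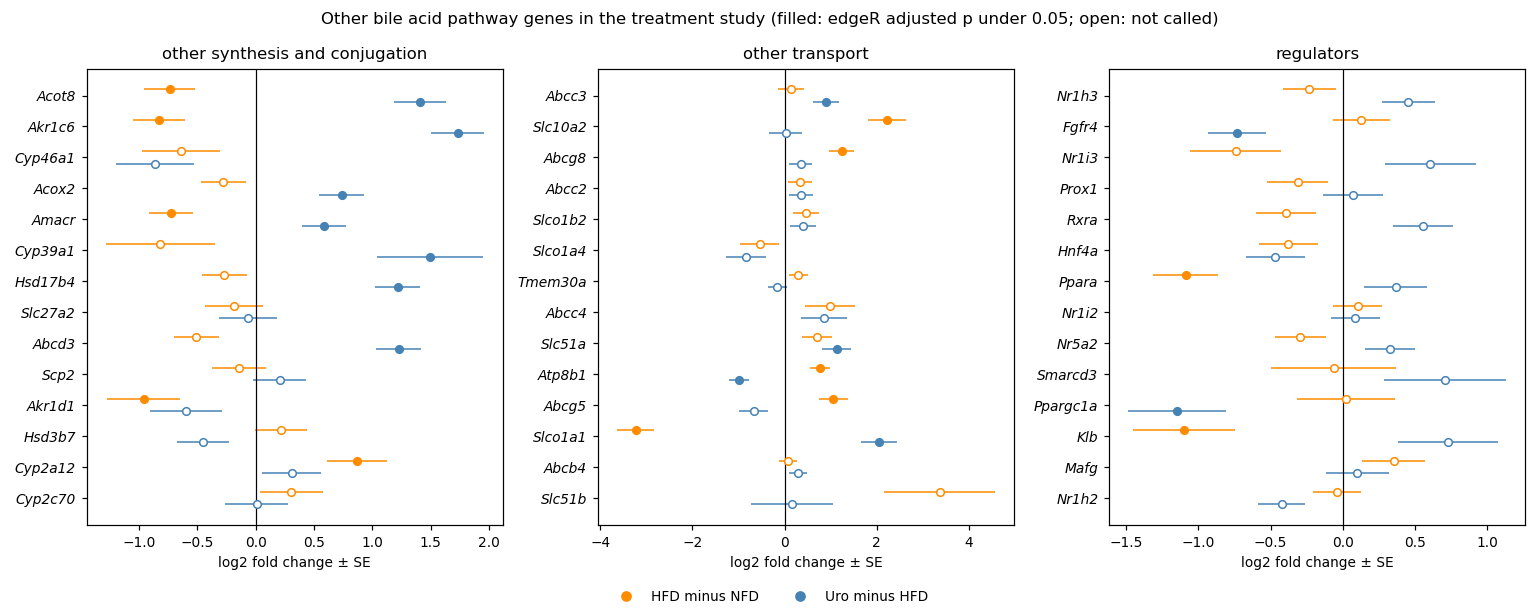
Log2 fold changes (edgeR, with SE) of the other pathway genes in HFD minus NFD (orange) and Uro minus HFD (blue), by list; filled points passed an adjusted p under 0.05 and open points did not. In the left panel the filled blue points are all above 0 (7 of 14), and Slco1a1 in the middle panel is at -3.23 in orange and 2.04 in blue.

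The deposited calls of the authors were read for the same comparisons. The authors' deposited table called Cyp7b1 and Slc10a1 down in HFD against NFD, Cyp7b1, Cyp8b1, Slc27a5 and Slc10a1 up in Uro against HFD, and Cyp7b1, Slc27a5 and Slc10a1 up in Uro against NFD. In the 3 comparisons of the prevention study, the authors' deposited table called 0 of those of the 10 genes that it lists. Slc27a5 in MC against NC was thus called here and not by the authors. Cyp7b1 in Uro against NFD was called by the authors and not here. Only 4 of the 10 genes, Cyp7b1, Cyp8b1, Slc27a5 and Slc10a1, are listed in the authors' deposited table, so it gives no call for the other 6, Cyp27a1 and Abcb11 included.

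The gene with the profile nearest to each member was sought among 11067 other genes tested in both studies, as the smallest root mean square difference of centred log2 CPM over the 30 libraries, which all share these libraries and their depth. The nearest to Slc10a1 was Ahsg (0.34, where Slc10a1 itself spread by 0.79), to Slc27a5 Ambp (0.26, spread 0.73), to Baat Aldh8a1 (0.23, spread 0.42), to Abcb11 Slc22a30 (0.33, spread 0.69) and to Cyp27a1 Shmt2 (0.27, spread 0.41). Differences were larger for the enzymes with wide spread. This measure grows with a gene's own spread, so that does not show less alike profiles. Cyp7b1 was nearest to Mup22 (0.68, spread 1.39), whose reads may be shared with near-identical genes of its family, Cyp8b1 to Cyp4a10 (0.77, spread 1.21) and Cyp7a1 to Scarb1 (0.61, spread 0.80). The regulators Nr1h4 and Nr0b2 were nearest to Vps16 (0.25, spread 0.36) and Acnat2 (0.64, spread 0.83).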

How the data were processed

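Liver RNA of 30 libraries was extracted with TRIzol, selected for poly(A), made into stranded libraries and read from both ends on a NovaSeq X Plus sequencer, per the labels' protocols. The tools fastp, HISAT2, StringTie and DESeq2 and the genome build GRCm39 are named per the submitters' processing notes, without versions. The deposited gene table holds expected counts per gene, not scaled by the authors, and 4.02 to 7.03% of its values per library are fractional; these were rounded to whole numbers. The authors' deposited TPM values are scaled by length and to one total with mitochondrial genes included. The authors' deposited table of calls is of DESeq2 by its name, with thresholds not given. How reads shared by paralogs or overlapping genes were counted is not given in the sources used here. All 10 gene IDs were found in the GENCODE M39 annotation.

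Each study of 15 libraries was fitted alone in edgeR 4.0.16 (R 4.3.3; filterByExpr by group, TMM, robust quasi-likelihood F-test) with Benjamini-Hochberg adjustment over all genes tested, and interactions in 1 fit of 30. SEs were taken as |log2 fold change| over the root of F. CPM is on TMM sizes of all 30 libraries. Ratios were compared with exact permutation tests in SciPy 1.17.1. Alternatives were DESeq2 1.42.0, DESeq2 size factors, no filter, mitochondrial genes removed, the mitochondrial share as a covariate, removal of single libraries or of the library of highest mitochondrial share in each group, limma 3.58.1 on log2(TPM + 1), a replicate block and 1 fit of 30 libraries. The procedure was tested on simulated data, drawn from 1 mean profile for all groups with 200 genes changed in 1 group. These data held no group difference in mitochondrial share, so they cannot show how the fits behave under such a difference. All 10 members are described; other pathway genes are named where they have the 3 smallest adjusted p of their list among the genes called in 1 of the 4 main comparisons. The members and lists were chosen with earlier results of these data known. A further regulator is not reported here and was left out of the list, its counts and its median. Of 60 pairs of libraries within groups, 0 were identical, and 0 columns of per-sample values were left unused.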

Additional observations from a re-analysis of the deposited data

Results flagged for a closer look

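In HFD, replicate 2 stood above the other 4 libraries by a gap that passed Dixon's test for Cyp7b1 (11.98 CPM, others 1.86 to 4.72), Cyp27a1 (145.4 CPM, others 62.8 to 82.7), Baat (111.2 CPM, others 45.1 to 51.5) and Slc10a1 (35.32 CPM, others 16.0 to 19.5). Its mitochondrial share, 43.2%, lay within the 40.97 to 58.5% of its group. In NFD, replicate 4 stood above the others for Nr0b2 (39.49 CPM, others 7.70 to 11.4). These are 5 flags in 60 groups of 5, where chance gives about 1 in 20, and 4 of the 5 come from 1 library. Without NFD replicate 4, Nr0b2 passed in Uro minus NFD (edgeR adjusted p = 0.0112). That library was left out for its high Nr0b2 value, which by itself favours this call.

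The effect of the high-fat diet differed between the studies for Cyp7b1 (-3.3207, treatment minus prevention study, log2) and Slc10a1 (-1.1578). Cyp7b1 had log2 fold changes of 1.15 in MC minus NC and -2.13 in HFD minus NFD, and Slc10a1 of -0.05 and -1.16. Without HFD replicate 2 the differences were -4.00 and -1.41. The difference for Slc10a1 lost its call without any 1 of 12 libraries, NC replicates 3, 4 and 5, MC replicates 1 and 3, NFD replicates 1, 2 and 3 and HFD replicates 1, 3, 4 and 5 (edgeR adjusted p up to 0.106).

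The effect of UB-NPs differed for Cyp7b1 (3.8854), Cyp8b1 (2.8969), Slc27a5 (1.9864) and Slc10a1 (2.6232). In UB minus MC these genes had log2 fold changes of -0.47, -1.03, -0.21 and -0.24, and in Uro minus HFD of 3.44, 1.90, 1.80 and 2.42. The mitochondrial share was 28.5 to 35.6% in UB and 10.2 to 15.6% in Uro, and its part was not tested apart from the fit with the share as a covariate, which called 0 of the 4.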

How the results depend on the processing

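Depth limits the lowest values, such as Cyp7b1 in HFD with 30 to 238 counts, and the design of 5 against 5 limits the exact permutation tests of ratios to p = 0.007937. With the mitochondrial share as a covariate, edgeR called 0 members in MC minus NC, Uro minus HFD, Uro minus NFD and both interactions (3, 2, 1, 4 and 1 members at an unadjusted p under 0.05), and 318 genes in MC minus NC, 72 in UB minus NC, 206 in the diet interaction and 0 in Uro minus HFD, Uro minus NFD and the UB-NP interaction (1544, 1391 and 1359 at an unadjusted p under 0.05); Cyp8b1 reversed to -0.45 in Uro minus HFD and Slc27a5 to -0.31 in Uro minus NFD. On the TPM scale (limma), 7 members were called in UB minus NC, 9 in Uro minus HFD, 10 in Uro minus NFD, and 0 in HFD minus NFD and the diet interaction (2 and 5 at an unadjusted p under 0.05), with 7639, 8000, 10661, 708 and 61 genes; the median log2 fold change of all genes there was 0.25 in MC minus NC, 0.26 in UB minus MC, 0.55 in UB minus NC, 0.15 in HFD minus NFD, 0.55 in Uro minus HFD and 0.76 in Uro minus NFD. Signs turned on it for Slc10a1 (0.76) and Abcb11 (0.87) in UB minus NC, and for Abcb11 (0.99), Baat (1.41) and Nr1h4 (1.16) in Uro minus NFD. DESeq2 called 1 member and 234 genes in UB minus MC and 2 members in UB minus NC; without the filter, 1 member and 129 genes were called in UB minus MC. Without the library of highest mitochondrial share in each group, 2 members were called in UB minus NC and 1227 genes in the diet interaction. The cause of these shifts was not tested. Same-numbered libraries correlated at -0.05 to 0.13 in the prevention and -0.2 to 0.16 in the treatment study (over 0.1 in 1 and 2 of 15 pairs each). These low values show no clear pairing by number but cannot exclude one. With the replicate block, 1 member was called in UB minus NC (Baat, edgeR adjusted p = 0.0342, against 0.0624 without it) and 1 in the diet interaction. Cyp7b1 passed in Uro minus NFD with the block (edgeR adjusted p = 0.0039, against 0.054 without it).

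Leaving out 1 library at a time, members called ranged from 0 to 4 in MC minus NC, 0 to 1 in UB minus MC, 0 to 2 in UB minus NC, 2 to 3 in HFD minus NFD, 3 to 5 in Uro minus HFD, 2 to 3 in Uro minus NFD, 1 to 5 in the diet interaction and 4 to 5 in the UB-NP interaction. Genes called ranged from 923 to 2316, 20 to 100, 550 to 1589, 1108 to 2338, 3023 to 3661, 3214 to 4223, 495 to 1383 and 1404 to 2182 in the same order. The log2 ratio of Cyp8b1 to Cyp7a1 ranged from -1.26 to -0.81 in UB minus MC and from 1.75 to 2.48 in Uro minus HFD. Counted over alternative fits of each member and not over comparisons, 66 fold changes changed sign while uncalled under both settings. Of these, 33 came from fits without 1 library, where 919 stayed the same. The other 33 came from the remaining alternatives, where 609 stayed the same.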
